A study of Mus musculus with 4 samples.

Results

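Chromatin accessibility was examined here at the promoters of the mouse zinc finger genes that carry the name Zfp and a number and lie on chromosomes 7, 8, 13 and 17, where many of these genes stand side by side. A promoter peak was any peak of the deposited ATAC-seq table within 1 kb of a start site of such a protein-coding gene in the GENCODE M21 annotation (genome build mm10). This gave 212 peaks out of 128055, which served 178 of the 185 genes of this kind on the 4 chromosomes. The choice used gene names and positions and no accessibility value. ATAC-seq inserts sequencing adapters into open DNA with a transposase, so that a high signal marks accessible chromatin.

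The cells were bone-derived mesenchymal stem cells (MSCs) of mice aged 3 to 5 months, sorted on day 12 per the labels. They were cultured under 2% O2 (hypoxia, 2 libraries) or 21% O2 (normoxia, 2 libraries), with 5% CO2 in both. Per the study's methods the MSCs were first grown in hypoxia and sorted for Sca-1 and CD140a and against CD45 and Ter-119, and part of the sorted cells was then shifted to normoxia. Hypoxia is therefore the starting state and fold changes are given as normoxia over hypoxia. The study describes its ATAC-seq replicates as biologically independent, while how they relate to single animals is not given in the sources used here. The p-values measure the spread between these libraries. The labelled cell type was checked at marker promoters: 9 of 10 MSC markers had a promoter peak (Lepr had none), against 2 of 6 blood markers, with Ptprc, Itgam, Cd79a and Cd3e having none, 2 of 3 endothelial and 1 of 2 epithelial markers.

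Zinc finger proteins of the C2H2 type read DNA through a row of small zinc-binding loops, with each finger touching a few bases. In mammals the largest group of them carries a KRAB box at the start of the protein, which recruits the corepressor TRIM28 (also called KAP1) and, through it, the H3K9 methyltransferase SETDB1 and HP1 proteins. Many of these KRAB zinc finger proteins silence transposable elements. Their genes multiplied by tandem duplication, which is why they stand in clusters of related copies.

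The label "clustered" held for a part of the set only. Of the 185 genes, 117 lay in 12 clusters, defined as runs of at least 5 such genes with starts at most 300 kb apart, and 133 of the 212 peaks belonged to a cluster gene. A KRAB pattern was found in the longest reading frame of 115 of the 185 genes, in 88 of the 117 cluster genes and in 27 of the 68 genes outside clusters. Of all 185 genes, 162 encoded at least 5 C2H2 fingers by a strict spacing pattern and 4 encoded none by that pattern. Chromosome 7 held 89 of the peaks, chromosome 17 held 54, chromosome 13 held 38 and chromosome 8 held 31. The genes with no promoter peak in either condition were 7 in number: Zfp366, Zfp97, Zfp541, Zfp977, Zfp936, Zfp869 and Zfp42, the last of which (Rex1) is a marker of pluripotent cells.

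Some promoters of neighbouring genes were relatives in sequence (32 of 154 genes had a partner aligned over at least 200 bases), and others had only short letters in common. The stretches below come from 4 clusters and show both cases. Each is the 250 bases before a start site from RefSeq (GRCm38.p6, the same assembly as mm10), written 5′ to 3′ in the direction of the gene. Capitals mark 3 kinds of letters, read on either strand. The first is the E-box CACGTG, bound by many helix-loop-helix factors, together with its core of 5 letters, which is also the core of the hypoxia response element. Next is the CCAAT box, which the trimeric activator NF-Y is known to read (it appears as ATTGG when on the opposite strand). The last is TCCCAGAA, part of the element that the activator ZFP143 is known to bind. The TCCCAGAA letters were added to the search after the sequences had been seen. The E-box contains its own core, so these matches overlap.

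From the chromosome 17 cluster of Zfp677 to Zfp946, the following promoters are shown for their common E-box: Zfp947 (chr17:22165978-22166227), Zfp994 (chr17:22225615-22225864), Zfp942 (chr17:21962465-21962714) and Zfp944 (chr17:22361401-22361650), all 4 on the minus strand.
Zfp947: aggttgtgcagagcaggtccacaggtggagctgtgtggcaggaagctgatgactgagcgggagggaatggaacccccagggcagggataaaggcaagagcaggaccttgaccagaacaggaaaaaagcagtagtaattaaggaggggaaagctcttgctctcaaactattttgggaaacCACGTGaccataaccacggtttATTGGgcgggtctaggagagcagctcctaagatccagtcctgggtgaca
Zfp994: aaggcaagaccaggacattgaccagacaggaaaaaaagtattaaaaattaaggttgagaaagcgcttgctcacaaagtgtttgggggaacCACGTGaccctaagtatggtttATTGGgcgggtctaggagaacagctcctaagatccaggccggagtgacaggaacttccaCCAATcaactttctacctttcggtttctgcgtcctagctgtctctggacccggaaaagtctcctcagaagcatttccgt
Zfp942: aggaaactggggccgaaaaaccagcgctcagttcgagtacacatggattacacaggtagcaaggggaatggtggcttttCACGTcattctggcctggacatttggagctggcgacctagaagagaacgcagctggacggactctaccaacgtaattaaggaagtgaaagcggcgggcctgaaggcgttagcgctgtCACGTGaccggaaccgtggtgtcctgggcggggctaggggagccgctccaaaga
Zfp944: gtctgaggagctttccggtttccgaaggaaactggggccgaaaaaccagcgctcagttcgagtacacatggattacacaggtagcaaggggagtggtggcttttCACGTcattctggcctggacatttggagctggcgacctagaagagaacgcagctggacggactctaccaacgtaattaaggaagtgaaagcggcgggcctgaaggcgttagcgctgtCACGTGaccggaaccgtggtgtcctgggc
The stretch around the E-box of Zfp947 recurred in Zfp994, and over 211 aligned bases their windows were 84.8% identical. Zfp942 and Zfp944 were 99.6% identical over 275 bases. Each of these latter genes shares its promoter peak with a gene read the other way (Zfp943 and Zfp758), and Zfp943 and Zfp758 were in turn 99.7% identical over 293 bases. The pair of divergent promoters is thus present as near-copies.

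From the other chromosome 17 cluster, Zfp871 to Zfp414, the following are shown for their CCAAT boxes: Zfp811 (chr17:32809932-32810181) and Zfp871 (chr17:32787548-32787797), both on the minus strand.
Zfp811: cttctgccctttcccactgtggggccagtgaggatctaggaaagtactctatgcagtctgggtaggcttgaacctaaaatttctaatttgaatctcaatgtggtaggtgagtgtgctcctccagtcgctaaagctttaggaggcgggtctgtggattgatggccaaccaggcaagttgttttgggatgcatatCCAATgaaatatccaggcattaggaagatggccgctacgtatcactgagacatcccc
Zfp871: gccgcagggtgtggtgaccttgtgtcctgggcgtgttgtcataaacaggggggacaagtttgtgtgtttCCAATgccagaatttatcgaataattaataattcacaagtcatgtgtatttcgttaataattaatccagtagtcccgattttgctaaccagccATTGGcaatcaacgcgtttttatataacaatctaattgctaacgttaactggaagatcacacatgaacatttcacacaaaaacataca
All 10 genes of this cluster that had a RefSeq window over their peak held CCAAT in it.

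From the chromosome 13 cluster of Zfp712 to Zfp273 and the chromosome 7 cluster of Zfp84 to Zfp146, the following are shown for the element TCCCAGAA, since they carry it in both clusters while their accessibility differed: Zfp708 (chr13:67081546-67081795) (minus strand), Zfp273 (chr13:67813566-67813815) (plus strand), Zfp455 (chr13:67194256-67194505) (plus strand), Zfp260 (chr7:30094826-30095075) (plus strand) and Zfp146 (chr7:30169742-30169991) (minus strand).
Zfp708: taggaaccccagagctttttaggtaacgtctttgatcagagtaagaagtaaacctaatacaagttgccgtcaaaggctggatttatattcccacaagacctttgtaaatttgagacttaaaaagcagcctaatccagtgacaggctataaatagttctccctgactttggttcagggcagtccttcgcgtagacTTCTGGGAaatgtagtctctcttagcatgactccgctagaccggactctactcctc
Zfp273: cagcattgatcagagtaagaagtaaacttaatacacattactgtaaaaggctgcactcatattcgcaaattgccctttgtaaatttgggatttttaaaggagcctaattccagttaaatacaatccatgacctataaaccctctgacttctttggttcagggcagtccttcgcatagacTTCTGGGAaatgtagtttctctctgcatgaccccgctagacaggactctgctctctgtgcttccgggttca
Zfp455: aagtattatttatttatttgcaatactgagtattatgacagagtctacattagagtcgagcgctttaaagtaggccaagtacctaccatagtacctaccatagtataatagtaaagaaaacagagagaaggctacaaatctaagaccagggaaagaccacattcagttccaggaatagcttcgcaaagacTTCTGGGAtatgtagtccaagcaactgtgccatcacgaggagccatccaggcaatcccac
Zfp260: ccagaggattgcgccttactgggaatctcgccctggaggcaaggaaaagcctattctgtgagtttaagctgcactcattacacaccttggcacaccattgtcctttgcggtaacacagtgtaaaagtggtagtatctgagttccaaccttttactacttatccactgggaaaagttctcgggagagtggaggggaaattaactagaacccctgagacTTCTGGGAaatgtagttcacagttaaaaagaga
Zfp146: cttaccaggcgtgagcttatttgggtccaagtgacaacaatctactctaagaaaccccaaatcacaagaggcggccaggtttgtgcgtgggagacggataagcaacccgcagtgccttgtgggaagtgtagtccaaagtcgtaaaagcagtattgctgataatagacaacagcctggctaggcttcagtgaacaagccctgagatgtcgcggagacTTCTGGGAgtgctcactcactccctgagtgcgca
The element began 56 bases before the start in Zfp708, 71 in Zfp273, 60 in Zfp455, 33 in Zfp260 and 34 in Zfp146. In each case TCCCAGAA stood on the strand opposite to the gene, so that the printed stretch reads TTCTGGGA.

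The 4 libraries had inferred totals of 26680936 to 29965523 reads. These totals were worked out from the smallest value of each library under an assumed scaling constant. A peak's signal was its number of reads divided by the library total but not by the width of the peak, so levels are compared between libraries for the same peak and not between peaks. Peaks took up 57.0% and 62.3% of the inferred library total in hypoxia and 32.5% and 37.6% in normoxia. These shares rest on the same assumed constant, and the part of this difference in the results was not tested. Over the Zfp promoter peaks the median number of reads was 269.5 and 311.5 with hypoxia and 130.5 and 185 with normoxia, where 20 and 21 peaks held under 10 reads. The signal is that of many cells together, so fewer open cells and less openness per cell cannot be told apart.

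Zfp promoters were less accessible in normoxia. Over the 212 peaks, the median deposited signal was 95.4 and 106 for hypoxia against 48.9 and 61.7 for normoxia. At 204 of the 212 peaks (96.2%) the higher normoxia library was still under the lower hypoxia library, which was so for 59.5% of all peaks and 86.1% of all promoter peaks. After scaling by size factors, which sets the median change of all peaks near 0, the 2 conditions were separated in this way at 166 peaks (78.3%), against 29.6% of all peaks and 60.3% of all promoter peaks. On that scaled level the median log2 fold change was −0.44, against −0.27 over all promoter peaks. The same median was −0.91 on the deposited values, where all promoter peaks had −0.73 and all peaks −0.44. It was −0.15 with equal totals over peaks, where all peaks had 0.26, −0.19 with quantile normalization and −0.18 with cyclic loess.

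With limma on log2(value + 1) and a false discovery rate (FDR) under 0.01 over all peaks, 68 of the 212 peaks (32.1%) were called lower in normoxia, against 4.57% of all peaks and 16.7% of all promoter peaks. The called peaks belonged to 65 genes. Their fold changes ranged from −1.95 to −0.43 with a median of −0.63, and edgeR on the recovered reads called all 68 of them too. None was called higher, against 1.77% of all peaks and 0.442% of all promoter peaks. A single peak was higher at an unadjusted p under 0.05, and edgeR on the recovered reads also called 0 higher. That peak, a weak one of Zfp612, had a signal of 6.56 ± 2.27 in hypoxia against 8.34 ± 3.31 in normoxia (SD, n = 2), with overlapping libraries. In all, 10 peaks had a positive fold change. Of these, 5 had a mean signal of at least 10 (Zfp296, Zfp420, Zfp14, Zfp260 and Zfp455), and the others were weak. Zfp612, Zfp420 and Zfp14 are named after their values were seen. The number of calls depended on the libraries and the scaling. Without either hypoxia library limma called 0 of all peaks, and with quantile normalization 8 Zfp peaks (3.77%) were called lower, against 0.713% of all peaks.

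Among promoter peaks the fold change varied with the strength of the peak, so each Zfp peak was set beside other promoter peaks on its own chromosome with the same mean level (within 0.25 on the log2 scale, 91 peaks in the median case, none of them at a gene named Zfp, Zscan, Zkscan, Zik1, Zim or Rsl1). The median difference between the log2 fold change of a Zfp peak and that of its comparison was −0.15, and 160 of 212 (75.5%) lay below their comparison median. Of the equally strong comparison peaks, 16.3% were called lower, against 32.1% of the Zfp peaks. This difference, called the offset here, was between −0.15 and −0.14 under the other 4 scalings of the libraries, but −0.19 to −0.09 with 1 library left out, the latter without normoxia replicate 1. The offset varied by chromosome. It was −0.09 on chromosome 7, where 64 of 89 peaks lay below, −0.14 on chromosome 8 (23 of 31), −0.23 on chromosome 13 (28 of 38) and −0.27 on chromosome 17 (45 of 54). The calls followed the same order at its ends, with 20 of 89 (22.5%) on chromosome 7 against 18.5% of equally strong peaks, and 25 of 54 (46.3%) on chromosome 17 against 11.8%. On chromosome 8 there were 11 of 31 (35.5% against 16%) and on chromosome 13 there were 12 of 38 (31.6% against 17.6%).

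**Figure D1:**
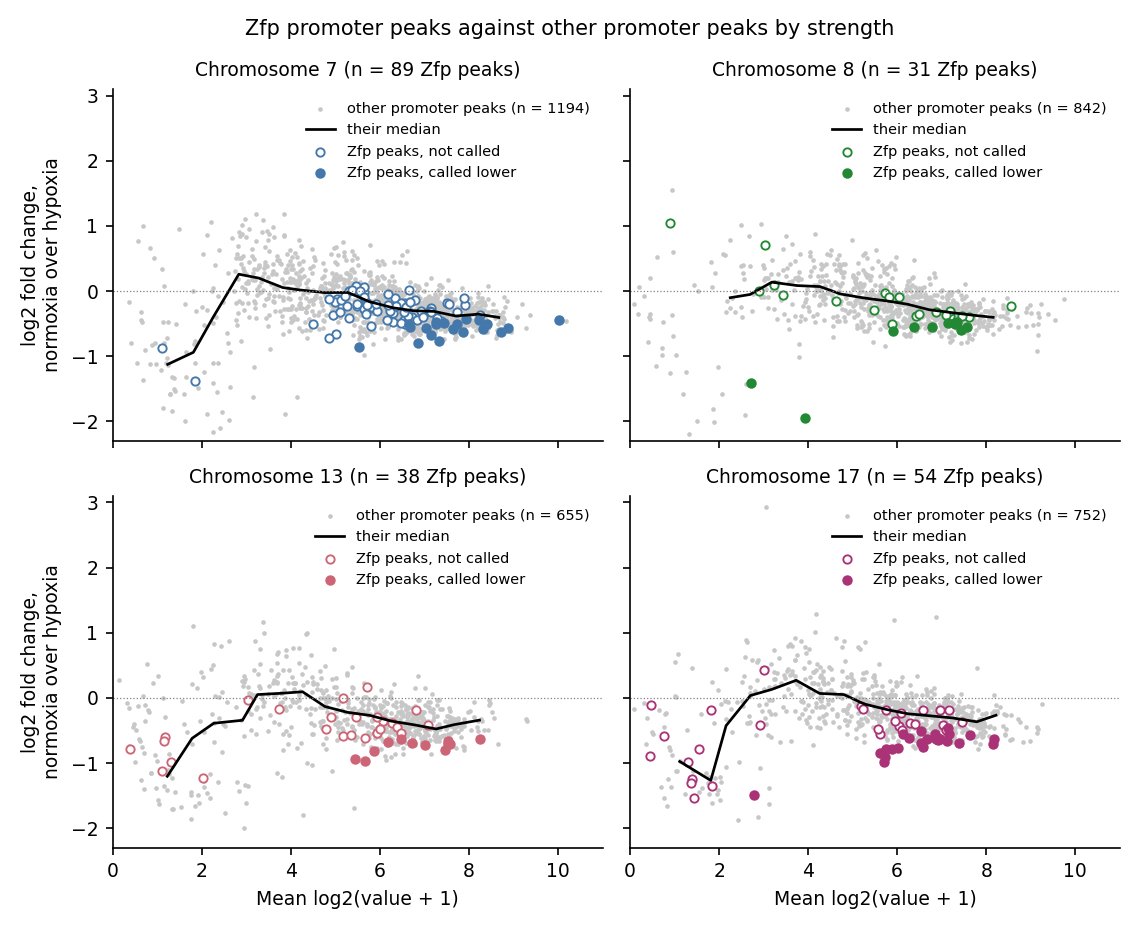
Log2 fold change (normoxia over hypoxia, vertical axis) against mean log2(value + 1) over the 4 libraries (horizontal axis) for Zfp promoter peaks on each chromosome (coloured, filled where called lower by limma at an FDR under 0.01) and for the other promoter peaks of that chromosome (grey), whose median per bin of strength is the black line. On chromosome 17, 25 of 54 points are filled, against 20 of 89 on chromosome 7. Filled and open points together, 45 of 54 on chromosome 17 lay below the median of their equally strong promoters, with a median difference of −0.27. On chromosome 7 it was 64 of 89, with a median difference of −0.09.

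The offset was also read in each library. Since each comparison set was chosen to have the same mean over all 4 libraries, the offsets of the 4 libraries balance each other by construction, and only their order carries information. For all Zfp peaks the median level relative to the comparison was 0.05 and 0.10 for hypoxia against −0.12 and −0.02 for normoxia. The groups did not overlap, but the smallest gap between a hypoxia and a normoxia library (0.05 against −0.02) was about as wide as the spread within a group (pooled SD 0.06, n = 2 per group). On chromosome 17 the values were 0.10 and 0.19 against −0.20 and −0.08, well apart (pooled SD 0.07). On chromosome 13 they were 0.02 and 0.11 against −0.18 and 0.01, so that normoxia replicate 2 lay next to hypoxia replicate 1 and the spread within groups (pooled SD 0.11) was the largest of the 4 chromosomes. Without normoxia replicate 1 the offset on chromosome 13 shrank to −0.04, and on chromosome 8 to −0.07. With only the 5′ end of each gene as its start, the offset on chromosome 8 was −0.051.

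**Figure D2:**
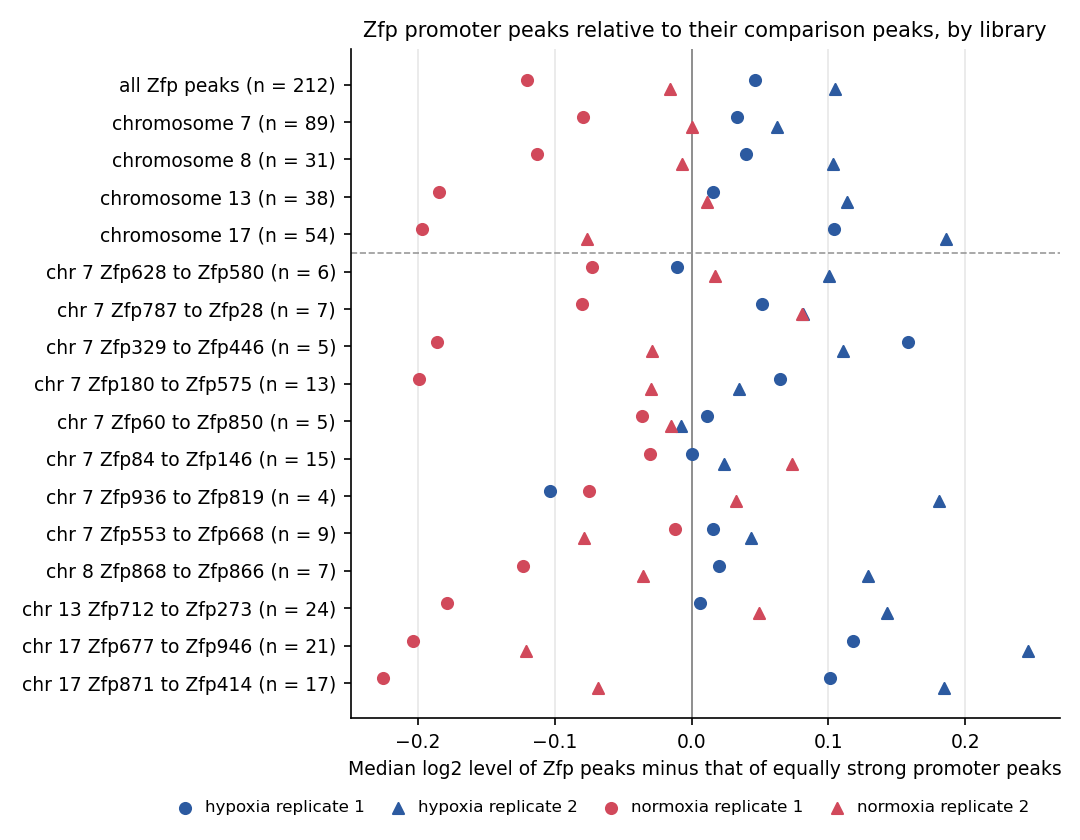
Median log2(value + 1) of the Zfp peaks minus that of equally strong promoter peaks (horizontal axis, log2 units), for each library (blue, hypoxia; red, normoxia; circle, replicate 1; triangle, replicate 2), over all 212 peaks, by chromosome and by gene cluster. On chromosome 17 both hypoxia libraries lie at 0.10 or above and both normoxia libraries at −0.08 or below, while the colours overlap in the clusters Zfp628 to Zfp580, Zfp787 to Zfp28, Zfp84 to Zfp146, Zfp936 to Zfp819 and Zfp712 to Zfp273.

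The clusters differed among themselves. Of the 12 clusters the largest offset was in the chromosome 17 cluster of Zfp677 to Zfp946 (18 genes, chr17:21383748-22424222 in mm10, first to last gene start). Of its 21 peaks 11 (52.4%) were called lower, against 13.7% of equally strong promoters, 20 lay below their comparison, and the median log2 fold change was −0.69, which was −0.32 below equally strong promoters. The median deposited signal there was 93.4 and 99.95 in hypoxia against 41.2 and 48.1 in normoxia. Every peak of the other chromosome 17 cluster, Zfp871 to Zfp414 (11 genes, 17 peaks), also had a negative fold change, with a median of −0.56 and 8 called (47.1%, against 8.77% of equally strong promoters). In the chromosome 13 cluster of Zfp712 to Zfp273 (19 genes, 24 peaks, all 24 at genes with the KRAB pattern) the median was −0.54 and 8 peaks were called (33.3%, against 18.7% of equally strong promoters). Relative to the comparison the conditions overlapped in this cluster, with 0.0063 in hypoxia replicate 1 and 0.049 in normoxia replicate 2. The small chromosome 8 cluster of Zfp868 to Zfp866 had a median of −0.47 over 7 peaks, of which 4 were called (57.1% against 19.9%).

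On chromosome 7 the clusters varied. In the cluster of Zfp84 to Zfp146 (15 genes and 15 peaks, chr7:29768552-30169750) no peak was called by limma at an FDR under 0.01, the fold changes ran from −0.37 to 0.06 with a median of −0.20, and the peaks lay at their comparison level (median difference 0.02, 6 of 15 below). Of the equally strong promoters of chromosome 7 around this level 15.7% were called. Also with 0 called were Zfp60 to Zfp850 (5 peaks, median −0.20) and Zfp553 to Zfp668 (9 peaks, median −0.21), where 6.16% and 7.77% of equally strong promoters were called. The other 5 clusters of chromosome 7 had 2 or 3 peaks called each, with medians from −0.51 (Zfp329 to Zfp446) to −0.33 (Zfp936 to Zfp819). The share called was 3 of 5 against 24.7% of equally strong promoters in Zfp329 to Zfp446, 2 of 4 against 21.8% in Zfp936 to Zfp819 and 33.3% against 20.03% in Zfp628 to Zfp580. It was 23.1% against 10.4% in Zfp180 to Zfp575, and in Zfp787 to Zfp28 it was near its comparison, at 42.9% against 36.5%. These shares rest on 4 to 13 peaks each. Genes with the KRAB pattern made up most of both the chromosome 17 clusters and the Zfp84 to Zfp146 cluster (12 of 15 peaks). The part of the KRAB pattern in the difference was not tested. The difference between clusters was not tested, since clusters are not replicates.

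**Figure D3:**
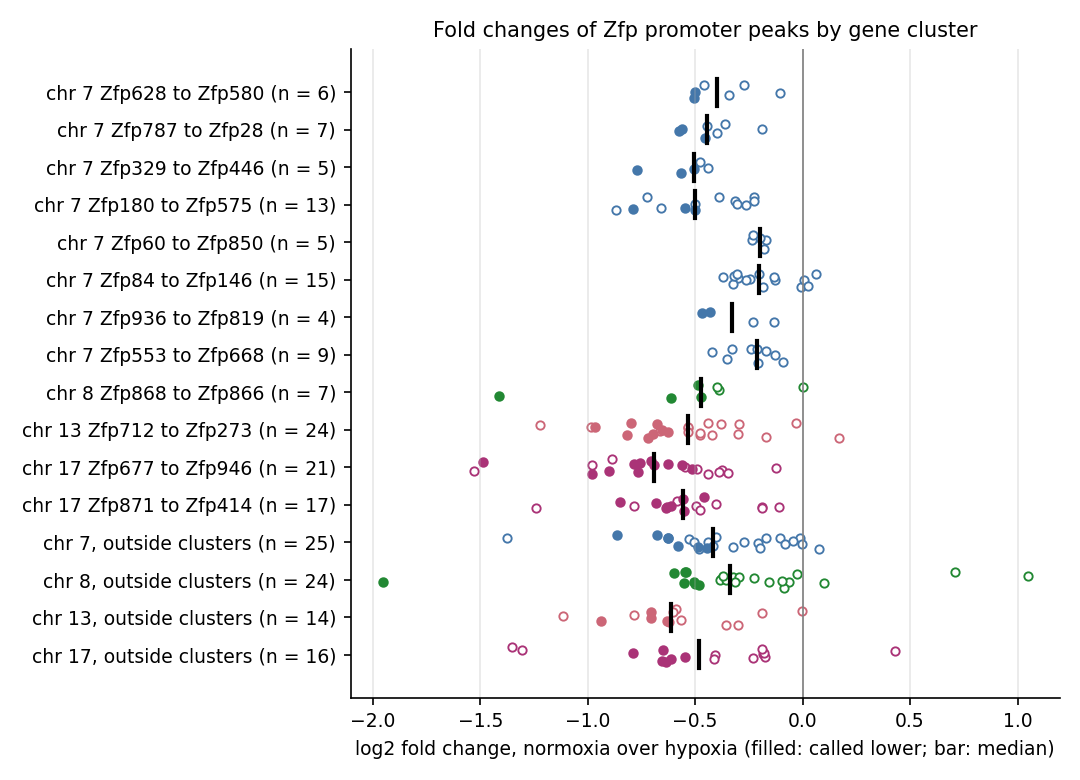
Log2 fold change (normoxia over hypoxia) of each Zfp promoter peak, grouped by gene cluster and, at the bottom, for peaks outside clusters on each chromosome. Filled points were called lower by limma (FDR under 0.01), bars are medians and vertical scatter has no meaning. The 15 peaks of Zfp84 to Zfp146 hold no filled point, while 11 of 21 peaks of Zfp677 to Zfp946 are filled.

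Cluster membership as such did not set the peaks apart. The 133 peaks in clusters had a median log2 fold change of −0.45 with 44 called (33.1%), and the 79 peaks outside had −0.41 with 24 called (30.4%). Against equally strong promoters the offsets were −0.15 and −0.13. On chromosome 17, 50% of cluster peaks and 37.5% of those outside were called, with offsets of −0.27 and −0.12. Chromosome 8 had 57.1% of 7 cluster peaks and 29.2% outside (offsets −0.15 and −0.12). For chromosome 13 it was 33.3% and 28.6% (−0.22 and −0.25), and for chromosome 7 it was 20.3% and 28% (−0.09 and −0.11). These splits were not tested. Peaks of genes with the KRAB pattern (137 peaks, −0.49, 45 called) and without it (75 peaks, −0.36, 23 called) had offsets of −0.16 and −0.10. Peaks of genes with at least 5 fingers numbered 186, with a median of −0.45, and those with fewer numbered 26, with −0.36. The same kind of gene on other chromosomes gave 177 promoter peaks with a median of −0.37. Of these, 48 (27.1%) were called lower and 0 higher, where 0.442% of all promoter peaks were called higher. Their offset was −0.09, with 114 below the comparison. In offset this was close to chromosome 7.

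The peaks named next were the strongest, the most clearly changed and the extremes on each chromosome, with a few genes of known role. On chromosome 7 the highest signal was at Zfp36, which encodes tristetraprolin, an RNA-binding protein that destabilises AU-rich mRNAs and has zinc fingers of another type than C2H2. Its 16100-bp peak, which also covers a start of Plekhg2, had a signal of 1361 and 1514 in hypoxia against 700.5 and 815 in normoxia (log2 fold change −0.45 ± 0.07 SE, FDR = 0.000129). Equally strong promoters had −0.41, so that Zfp36 lay near its comparison. With cyclic loess scaling the fold change of Zfp36 was 0.16, and with equal totals (−0.16) and quantile normalization (−0.22) it was not called. Zfp78 followed, with 653 and 702 against 272 and 398 (−0.56 ± 0.10, FDR = 0.000351).

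Zfp110 encodes NRIF, a KRAB zinc finger protein that binds the neurotrophin receptor p75NTR. Its peak had a signal of 236 and 257 in hypoxia against 90.7 and 117 in normoxia (−0.77 ± 0.12, FDR = 5.35e-05), which was −0.46 below equally strong promoters. Zfp369 on chromosome 13 encodes a close relative of that protein, and its main peak moved alike, with 288 and 287 against 110 and 145 (−0.70 ± 0.11, FDR = 0.000107). These are related proteins with a like change in signal at their promoters. The 3 narrow shoulders of the Zfp369 peak, each 100 bp wide, held a signal of at most 3.06 in any library and none was called. Zfp788 (607 and 624 against 248 and 329) and Zfp772 (72.6 ± 2.11 against 29.1 ± 9.85, SD, n = 2) were both called, and the latter had the lowest fold change of its chromosome among peaks of a mean value of at least 10 (−0.86 ± 0.17). At the other end was Zfp296, with 56.6 and 43.5 against 34.1 and 41.4, a fold change of 0.07 ± 0.17 and overlapping groups on the scaled level.

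Zfp568, a KRAB gene of the Zfp84 to Zfp146 cluster that is known to silence a placental transcript of Igf2, had a signal of 245 and 228 in hypoxia against 141 and 154 in normoxia. The groups did not overlap on the deposited values, yet its fold change of −0.20 ± 0.11 was not called (FDR = 0.22) and lay 0.15 above equally strong promoters. Its neighbours Zfp260 and Zfp146, whose promoters are printed above, had fold changes of 0.02 ± 0.13 and −0.13 ± 0.13. The promoter of Zfp143, the activator whose element these promoters carry, had 257 and 322 in hypoxia against 171 and 215 in normoxia (−0.11 ± 0.11, FDR = 0.56), which was 0.29 above its comparison.

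On chromosome 8 the most strongly changed peak was a narrow one. The peak caller had used these same libraries to assign it, so its lower normoxia signal was favoured by selection. Zfp958 had a 500-bp peak, 467 bp from its start site and assigned to hypoxia only by the peak caller, with a signal of 31.8 and 36.7 in hypoxia against 4.87 and 6.67 in normoxia (−1.95 ± 0.25, FDR = 4.79e-06). On its other side it abuts the main peak, also of 2500 bp, which holds the start site and was called lower as well, with 250 and 287 against 116 and 149 (−0.54 ± 0.11, FDR = 0.00128). The 2500-bp peak that abuts it away from the start, at a distance of 967 bp, had 53.4 and 72.8 against 37.5 and 51.4 and a fold change of −0.03 ± 0.16. On the deposited values the narrow peak fell to 16.8% of its hypoxia signal, and the neighbour that was not called had 70.4%. Zfp961 was called as well (266 and 238 against 108 and 130, −0.60 ± 0.12), while Zfp963 (253 and 278 against 124 and 167, FDR = 0.016) missed the threshold.

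Zfp703, a transcriptional corepressor with an atypical finger, had the highest signal of chromosome 8 (480 and 481 against 275 and 316). Its fold change of −0.23 ± 0.09 was not called (FDR = 0.094) and was 0.16 above equally strong promoters. Zfp423, a multi-finger cofactor known for committing mesenchymal cells to fat, had 3 promoter peaks. The strongest of them had 195 and 184 in hypoxia against 95.2 and 125 in normoxia, with a fold change of −0.31 ± 0.12 (FDR = 0.079), and the other 2 had −0.29 and −0.06. None of the 3 Zfp423 peaks passed the test with limma, and 1 of them had an unadjusted p under 0.05.

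On chromosome 13 the promoter of Zfp367 had the highest signal, with 442 and 447 in hypoxia against 185 and 229 in normoxia (−0.63 ± 0.10, FDR = 8.77e-05). Within the chromosome 13 cluster, Zfp708 had 258 and 289 against 97.4 and 129 (−0.80 ± 0.12, FDR = 3.05e-05). Zfp65 had the lowest fold change of a peak of a mean value of at least 10, with 75.4 and 89.8 against 22.9 and 38.7 (−0.97 ± 0.17, FDR = 0.00035). Zfp455, in the same cluster, had 52.7 and 61.9 against 46.5 and 46.1 and the highest fold change of the chromosome, 0.17 ± 0.16 (FDR = 0.50). Zfp708, Zfp273 and Zfp455 all carry TCCCAGAA at a like distance from the start, and the first 2 were called lower while Zfp455 was not.

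On chromosome 17 the highest signals were at Zfp948 (383 and 483 in hypoxia, 163 and 219 in normoxia, −0.71 ± 0.11, FDR = 5.91e-05) and Zfp52 (391 and 459 against 183 and 212, −0.63 ± 0.10, FDR = 8.77e-05). Both are KRAB genes of the Zfp677 to Zfp946 cluster. A second Zfp52 peak of 900 bp, separated from the first by a narrow hypoxia-only peak, had −0.12 ± 0.18 and was not called. Among peaks of a mean value of at least 10, the lowest fold change was at Zfp947, with 72.9 and 99.95 against 28.5 and 33.0 (−0.98 ± 0.16, FDR = 0.000124), which was −0.80 below equally strong promoters. Zfp994, the relative of Zfp947 in promoter sequence, had −0.76 ± 0.13.

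Zfp57, the KRAB zinc finger protein that keeps DNA methylation at imprinted regions, lies outside the clusters. Its promoter had 85.6 and 94.9 in hypoxia against 32.6 and 42.0 in normoxia (−0.79 ± 0.15, FDR = 0.000629), which was −0.60 below equally strong promoters. The KRAB pattern used here missed its box, so it stands among the genes without the pattern. Zfp318, a nuclear protein known for its part in IgD expression in B cells, had 90.9 and 81.3 against 47.2 and 58.4 at its main peak, with −0.23 ± 0.15 and no call at any of its 3 peaks.

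**Figure D4:**
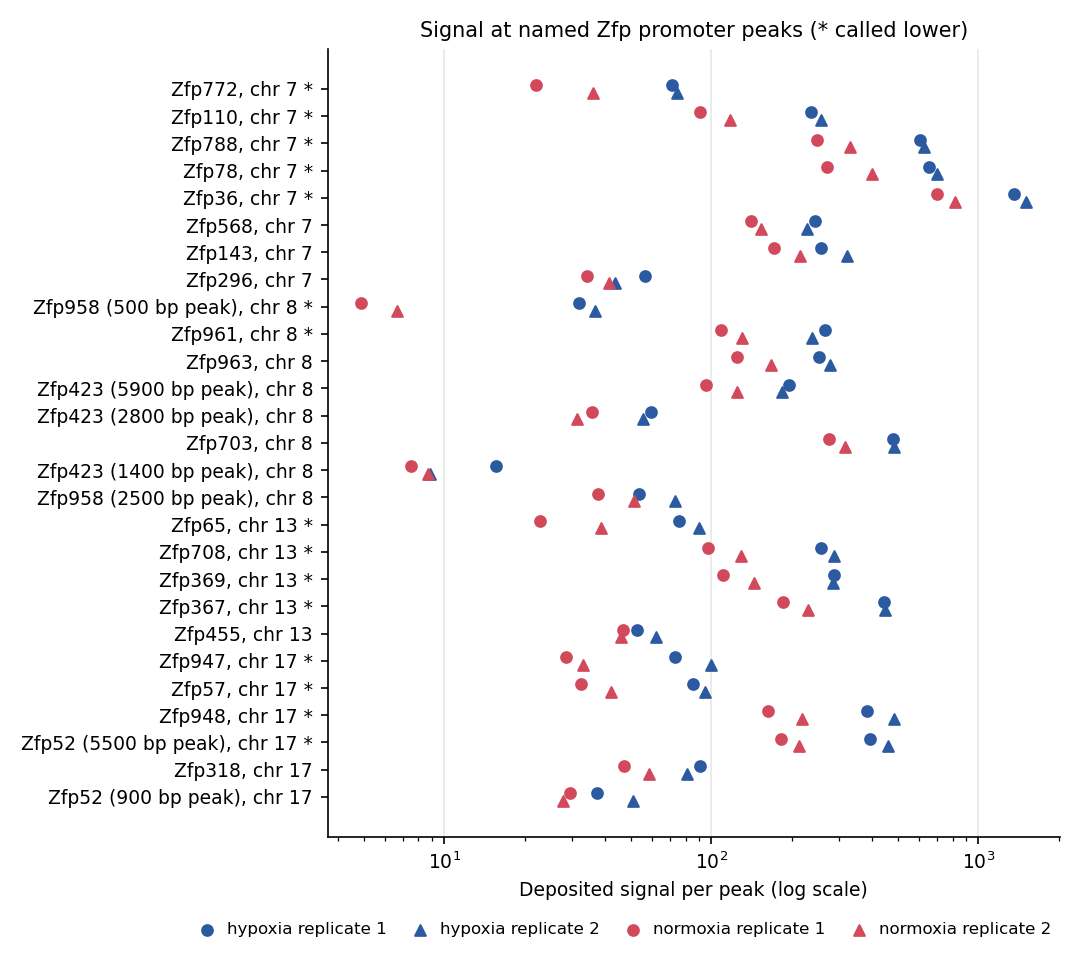
Deposited signal (horizontal axis, log scale, scaled reads per peak) at the named Zfp promoter peaks with a mean signal of at least 10, in hypoxia (blue) and normoxia (red) replicates 1 (circles) and 2 (triangles). Peaks are ordered by chromosome and then by fold change, and an asterisk marks those called lower by limma at an FDR under 0.01, such as the 500-bp peak of Zfp958 at the left.

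Reads at a few of the peaks cannot be assigned to 1 copy with certainty. In all, 4 pairs of member promoters were at least 90% identical over at least 200 bases: Zfp758 with Zfp943, Zfp942 with Zfp944, Zfp429 with Zfp456 (90.3%) and Zfp747 with Zfp764 (90.1%). The shared peak of Zfp942 and Zfp943 had 92.4 and 77.2 in hypoxia against 30.7 and 33.4 in normoxia (−0.90 ± 0.16), and that of Zfp758 and Zfp944 had 77.9 and 87.4 against 29.6 and 39.0 (−0.78 ± 0.16). Reads from such copies can be placed on either or be lost to the mapping quality minimum of 15 in the study's methods, so these values are uncertain. Without the 8 genes of the near-identical pairs, the other 146 genes with a window had a median offset of −0.15, and 53 of them had a peak called.

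Narrow peaks form a small class of their own. The peak caller had assigned 18 of the 212 peaks (8.49%) to hypoxia only, against 6.84% of all peaks. All 18 abutted another peak, 17 had a mean signal under 10 and their median signal was 2.23. Of these 18, 3 were called by limma, among them the Zfp958 peak. The share called was 16.7% of all promoter peaks, but their median signal was 62.6, so the shares are not compared at equal strength. The median log2 fold change of the 18 was −1.17. The caller had assigned them from these same libraries, so a lower signal in normoxia was favoured in advance. The remaining 194 peaks, assigned to both conditions, had a median log2 fold change of −0.41 with 65 called.

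Of the 178 genes with a peak, 154 had a RefSeq promoter window (250 bases before to 50 after the start) over it. These windows were poorer in GC (median 54.3%) and in CpG (13 per window) than those of the 2640 comparison genes on the same chromosomes (61.0% and 21). The SP1 letters GGGCGG, on either strand, were in 42.2% of the Zfp windows, in 65.6% of the comparison and in 35.7% of all 32851 RefSeq windows. CCAAT was in 45.5% of the Zfp windows, 38.1% of the comparison and 37.4% of all windows. The ETS letters CCGGAAG were in 21.4%, 16.4% and 8.86%. TCCCAGAA was in 24 windows (15.6%), against 3.75% of the comparison and 3.24% of all windows. Unlike the other letters, it was added after these promoters had been seen, so a high share was favoured in advance. The peaks themselves also had less GC than the comparison peaks (median 48.7% against 52.6%), and with comparison peaks of like GC content the offset was −0.14. Without that matching, the offset was −0.16 for the 130 peaks under 50% GC and −0.14 for the 52 at 50 to 55%. It was −0.12 for the 22 at 55 to 60% and −0.02 for the 8 with more GC.

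Sequence features varied between clusters. E-boxes CACGTG were in 8 of 17 windows of the Zfp677 to Zfp946 cluster (47.1%), against 9.74% of all Zfp windows, 9.81% of the comparison and 7.15% of all windows. The core ACGTG was in 20.8% of the Zfp windows, 24.9% of the comparison and 19.6% of all windows. The 8 windows stood over 6 peaks with a median log2 fold change of −0.77, of which 5 were called, and the 9 peaks without an E-box in that cluster had −0.51 with 4 called. TCCCAGAA was in 7 of 9 windows of the chromosome 7 cluster Zfp180 to Zfp575, in 6 of 17 of Zfp712 to Zfp273 and in 5 of 14 of Zfp84 to Zfp146, and in 0 of 17 of Zfp677 to Zfp946. Genes with the element had a median fold change of −0.43, as did those without it. NRF1 letters GCGCATGC were in all 4 windows of Zfp936 to Zfp819. In all, 30 pairs of windows aligned over at least 200 bases, 28 of them within a cluster, and these involved 32 of the 154 genes. The 28 pairs lay in Zfp712 to Zfp273, Zfp677 to Zfp946, Zfp60 to Zfp850 and Zfp553 to Zfp668. The other clusters held no pair of this kind between their own genes. Related promoters are not independent, so these counts are descriptions.

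The partners of KRAB proteins were looked at with a list of corepressor and heterochromatin genes from anywhere in the genome, apart from the Zfp genes. All 23 genes of the list had a promoter peak, 34 peaks in total. Their median log2 fold change was −0.42, against −0.27 over all promoter peaks. Of these, 10 peaks at 8 genes were called lower, against 16.7% of all promoter peaks, and some of the 10 fell on the same gene, Atf7ip. None was called higher, against 0.442% of all promoter peaks. The peaks of the list were not matched to equally strong promoters, so their strength was not taken into account. Trim28, the scaffold that KRAB boxes bind, had a signal of 271 and 269 in hypoxia against 120 and 159 in normoxia (−0.49 ± 0.11, FDR = 0.00366). Fam208a, a subunit of the HUSH silencing complex, had 152 and 171 against 66.7 and 78.1 (−0.67 ± 0.12, FDR = 0.000477). Uhrf1, which recruits the maintenance DNA methyltransferase, had −0.62 at its main peak (FDR = 0.00139). Atf7ip, Cbx3, Cbx5, Hdac2 and Smarcad1 completed the 8 genes. Setdb1, the methyltransferase itself, had 26.2 and 24.8 against 10.9 and 15.7 and was not called (−0.46 ± 0.23, FDR = 0.18). One of the Ehmt1 peaks had the highest fold change of the list, 0.55 ± 0.16, and was not called either (FDR = 0.021).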

How the data were processed

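ATAC-seq was deposited by the authors as 1 table of peaks with a signal per library for 2 hypoxia and 2 normoxia libraries. Per the study's methods the authors aligned reads to mm10 with Bowtie2, removed duplicates with Picard and called peaks over all libraries with chromstaR (mapping quality of at least 15). They call the deposited signal RPKM, but in every peak it is a whole number of reads times a constant of 0.334 to 0.375 per library, whatever the width. All values (100%) were whole reads within 0.0001 reads. The totals of 26680936 to 29965523 rest on an assumed scaling constant, which this check does not test.

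Here the signal was divided by size factors (0.81 to 1.23), and log2(value + 1) was fitted over all 128055 peaks with limma 3.58.1 (trend, robust, R 4.3.3), two-sided, with Benjamini-Hochberg adjustment and an FDR under 0.01. No peak was filtered. The study's methods used edgeR on these values, so edgeR 4.0.16 was run on them and on the recovered reads as alternatives. The code was tested on simulated data. Fold changes on this scale understate changes of weak peaks. Peaks were matched to comparison peaks of the same chromosome within 0.25 of mean log2(value + 1), or to the nearest 10. Peaks named are, per chromosome, the 2 of highest mean value, the 2 of lowest p, and the lowest and highest fold change at a mean value of at least 10, with genes of known role (of these, Zfp42 had no peak and Zfp469 is not protein-coding in GENCODE M21), and the peaks of the promoters printed, which were chosen after their values were seen.

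The members, gene lists and tests were chosen with earlier results of these data known. Replicate numbers do not pair the libraries by any label. KRAB boxes and fingers were counted by strict patterns in the longest reading frame of GENCODE M21 transcripts, in place of the RefSeq proteins planned, and miss other spacings. Promoter windows are from RefSeq (GRCm38.p6) and were aligned with blastn 2.17.0. Alternatives covered scaling, pseudocount, filters, window size, each library left out, a replicate block, the tool and the threshold. Intervals between libraries reflect 2 libraries per condition.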

Additional observations from a re-analysis of the deposited data

How the results depend on the processing

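With 68 Zfp peaks called lower as reported, the values as deposited gave 169, equal totals over peaks 17, quantile normalization 8, cyclic loess 17, an FDR under 0.05 gave 108 and limma without trend and robust estimation 0. Leaving out 1 library gave 0 to 88 calls: 0 without either hypoxia library, where limma called 0 of all peaks, and 45 without normoxia replicate 1. None was called higher by limma or edgeR in any of these settings. The median log2 fold change was −0.91 as deposited (all peaks −0.44), −0.15 with equal totals (all peaks 0.26), −0.19 with quantile normalization, −0.18 with cyclic loess and −0.52 to −0.31 with 1 library left out. The offset from equally strong promoters ranged with 1 library left out from −0.19 to −0.09 over all peaks, −0.12 to −0.06 on chromosome 7, −0.14 to −0.067 on chromosome 8, −0.29 to −0.043 on chromosome 13 and −0.36 to −0.19 on chromosome 17. With only the 5′ end of each gene as its start the offset on chromosome 8 was −0.051. Single peaks turned direction, none of them called except Zfp36. With equal totals the fold change was 0.064 for Zfp703, 0.26 for Zfp958 (2500 bp), 0.16 for Zfp52 (900 bp), 0.20 for Zfp423 (1400 bp), 0.18 for Zfp143, 0.085 for Zfp568, 0.058 for Zfp318 (1500 bp) and 0.15 for Zfp146. With quantile normalization it was 0.14 for Zfp703, 0.10 for Zfp958, 0.0099 for Zfp423 (5900 bp), 0.26 for Zfp143, 0.15 for Zfp568 and 0.14 for Zfp146. With cyclic loess it was 0.16 for Zfp36, 0.24 for Zfp703, 0.11 for Zfp958, 0.0033 for Zfp423, 0.29 for Zfp143, 0.15 for Zfp568 and 0.14 for Zfp146. As deposited it was −0.39 for Zfp296, −0.30 for Zfp455 and −0.45 for Zfp260. With 1 library left out the ranges were −0.17 to 0.32 for Zfp296, −0.19 to 0.14 for Zfp958, −0.29 to 0.045 for Zfp52 (900 bp), −0.48 to 0.36 for Zfp423 (1400 bp) and −0.15 to 0.19 for Zfp260, and for the offset of the clusters −0.21 to 0.088 in Zfp936 to Zfp819 and −0.066 to 0.013 in Zfp553 to Zfp668. The causes were not tested. The deviations of same-numbered libraries had a correlation of 0.011 over all peaks. With 2 libraries per condition this cannot show whether the libraries are paired, which is not known. A replicate block gave 90 calls. The GC, 1-peak-per-gene and cluster alternatives were added after seeing the data.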
